A study of Caenorhabditis elegans with 4 samples.

Results

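The 10 genes described here are *mom-1*, *mom-2*, *mom-5*, *wrm-1*, *lit-1*, *pop-1*, *sys-1*, *bar-1*, *hmp-2* and *apr-1* of the nematode worm *Caenorhabditis elegans*. They were chosen by name, as genes of the maternal Wnt pathway of the early embryo together with all 4 β-catenin paralogs of the worm. Earlier results of these data were known when the choice was made. All 10 had a row among the 20181 gene rows used of the count table, and all 10 passed the filter on low counts. RNA was sequenced from gonads dissected from N2, the wild-type laboratory strain (2 libraries), and from whole worms of the strain carrying the *glp-4(bn2)* mutation (2 libraries). Both groups were young adults grown on OP50 bacteria, and each sample was a pool of many gonads or worms. The *bn2* allele is temperature sensitive and is widely used to obtain animals with very few germ cells, but the labels give no growth temperature. The question of the comparison was which transcripts belong to the germline and which to the soma, and a dissected gonad also carries somatic sheath cells while a *glp-4* worm keeps its somatic gonad.

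Wnt proteins are secreted ligands that bind Frizzled receptors on neighbouring cells and change what β-catenin does with the transcription factor TCF. In the early *C. elegans* embryo a Wnt signal passes from the germline precursor cell to its neighbour and polarises that neighbour, so that one of its daughters founds the intestine. The proteins needed for this are loaded into the egg as maternal RNA or protein, and mutants that lack them make mesoderm in place of gut, which gave the *mom* genes their name ("more mesoderm"). The worm has divided the work of a single β-catenin among 4 genes. WRM-1 works with the kinase LIT-1 to lower TCF in the nucleus, SYS-1 is a TCF coactivator, BAR-1 serves canonical Wnt signalling in larval tissues, and HMP-2 links cadherin to the cytoskeleton at cell junctions.

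Libraries held between 19538620 and 25624824 counts. Levels are counts per 1000000 counts of the library after TMM scaling (CPM). Differences are log2 fold changes of gonad minus *glp-4* whole worm from edgeR's quasi-likelihood fit. Their standard errors (SE) were derived as the absolute log2 fold change divided by the square root of the F statistic of its test. A gene is called enriched at a Benjamini-Hochberg adjusted p under 0.05 with a fold of at least 2. The labelled tissues were checked against marker lists. All 6 germ cell and all 6 oocyte markers were gonad-enriched, while all 4 body wall muscle, all 6 intestine and all 3 pharynx markers were enriched in *glp-4* worms. So were 4 of 6 neuron, 4 of 5 hypodermis and all 3 vulva and uterus markers. Of 5 sperm markers 2 could be tested and 1 was gonad-enriched. Of 7 somatic gonad markers 1 was gonad-enriched and 4 were enriched in *glp-4* worms, and the spermathecal gene *sth-1* had no count in either gonad library. Whether the duplicates were separate cultures is not stated, and the p-values therefore reflect the spread between these particular samples, which may be technical. In bulk samples like these, fewer cells of a type and less RNA per cell cannot be told apart. Nor can tissue and strain, because all gonads came from N2 and all whole worms from the *glp-4(bn2)* strain.

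Of the 10 genes, 7 were gonad-enriched and 1 was enriched in *glp-4* worms. Of all 13101 genes tested, 30.9% were gonad-enriched and 53.1% were enriched in *glp-4* worms. The 7 were the ligand gene *mom-2*, the ligand-processing gene *mom-1*, the receptor gene *mom-5*, the APC-related gene *apr-1* and the β-catenin genes *wrm-1*, *sys-1* and *hmp-2*. The β-catenin gene *bar-1* went the other way, the TCF gene *pop-1* was higher in gonads by less than 2-fold, and the kinase gene *lit-1* did not pass the test. With no minimum fold, 8 of the 10 genes were higher in gonads and 1 was lower, against 36.4% and 56.6% of all genes tested. The median log2 fold change was 2.45 over the 10 genes and -1.50 over all genes tested. Because the 10 genes were chosen with earlier results of these data known, these counts describe the genes and are no test. Most genes differed between the groups, so groups without overlap, where given below, describe single genes only.

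**Figure D1:**
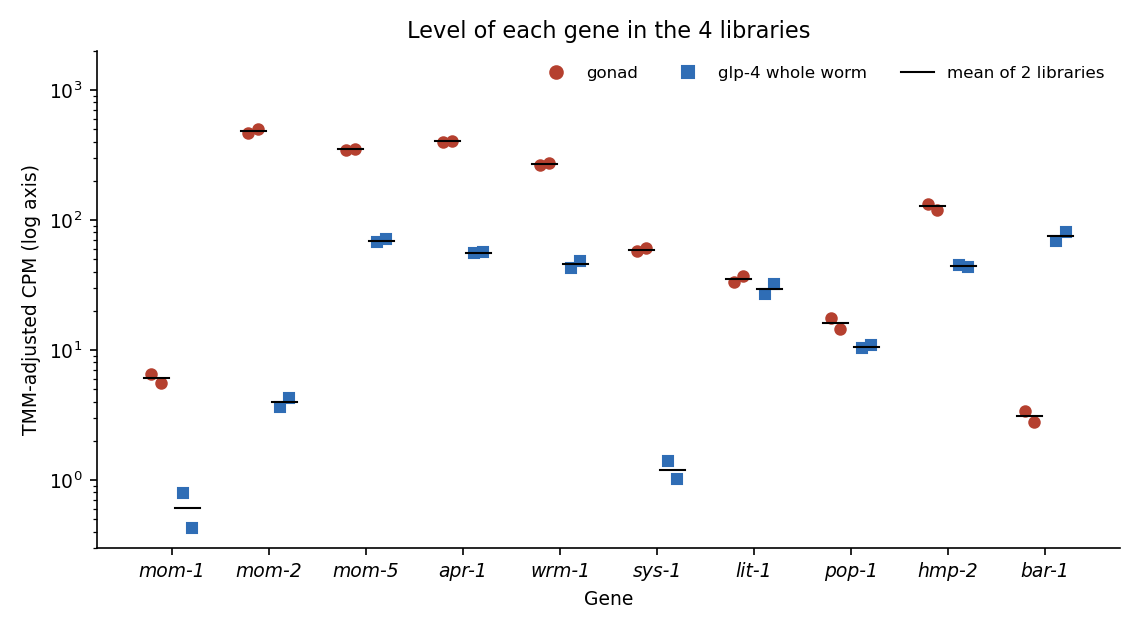
Level of each gene in the 2 gonad libraries (red circles) and the 2 glp-4 whole-worm libraries (blue squares), as TMM-adjusted CPM on a log axis, with black bars at the mean of each pair; CPM is not corrected for gene length, so heights are read within a gene. Both symbols of a pair lie close together, except for mom-1 in glp-4 worms (0.787 and 0.426 CPM). mom-2 and sys-1 are far higher in gonads, bar-1 is far lower, and lit-1 and pop-1 show the smallest gaps between the groups.

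Among the genes that make and release the signal, the ligand had by far the largest difference. *mom-2* (WBGene00003395, chromosome V, 8355988 to 8358185, plus strand) encodes the Wnt ligand of the early embryo. It had 465 and 501 CPM in gonad replicates 1 and 2, against 3.61 and 4.30 CPM in *glp-4* replicates 1 and 2. Both gonad libraries lay far above both whole-worm libraries. The log2 fold change was 6.93 ± 0.18 (SE), or 122-fold, with an adjusted p of 8.3e-18 (edgeR, Benjamini-Hochberg adjusted). Only 1.93% of the genes tested had a higher log2 fold change. The mean whole-worm level was 0.818% of the gonad level. The 6 oocyte markers summed to 19429 and 20087 CPM in gonads, against 162 and 156 CPM in *glp-4* worms, where their mean was 0.804% of that in gonads. The 6 germ cell markers summed to 2958 and 3056 CPM in gonads, against 57.9 and 56.6 CPM in *glp-4* worms, or 1.90%. Every marker of both lists had counts in both groups. Sums are weighted to the most abundant markers, and single genes varied. The fold of gonad over *glp-4* worm ran from 38.1 (*oma-2*) to 176 (*puf-5*) among oocyte markers. Among germ cell markers it ran from 20 (*glh-1*) to 125 (*gld-1*). The part of residual germ cells in the whole-worm level was not tested.

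*mom-1* (WBGene00003394, chromosome X, 6293112 to 6298305, plus strand) encodes the worm Porcupine, a membrane-bound acyltransferase that attaches a lipid to Wnt proteins before their release. It was a rare transcript, with 6.55 and 5.54 CPM in gonads against 0.787 and 0.426 CPM in *glp-4* worms, where it had only 17 and 11 counts. The groups did not overlap. Its log2 fold change was 3.33 ± 0.35 (SE), with an adjusted p of 1.63e-08 (edgeR, Benjamini-Hochberg adjusted). It came to 2.63 on the deposited log2 table, where an offset added to every value shrinks the folds of rare transcripts.

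The rest of the release machinery was higher in gonads as well. Of 6 genes listed for Wnt processing and secretion, *mom-1* among them, 5 were gonad-enriched and 0 were enriched in *glp-4* worms, beside 30.9% and 53.1% of all genes tested. Their median log2 fold change was 1.92, beside -1.50 over all genes. *mig-14*, which encodes the Wntless sorting receptor that carries Wnt to the cell surface, had 61.7 and 68.4 CPM in gonads, against 4.91 and 4.95 CPM in *glp-4* worms. Its log2 fold change was 3.72 ± 0.17 (SE). The genes for proteins that return Wntless from endosomes differed less, by 1.40 ± 0.13 for the retromer gene *vps-35*, 2.43 ± 0.18 for the myotubularin gene *mtm-9* and 1.08 ± 0.13 for the sorting nexin gene *snx-3*. Of these, *snx-3* fell under the fold minimum with library totals as the scaling (0.92) and on the deposited log2 table (0.91). The second myotubularin gene *mtm-6* differed by 0.96 ± 0.13 and passed the fold minimum with RLE size factors, with DESeq2 (1.04 in both), without *glp-4* replicate 2 (1.0) and without gonad replicate 2 (1.06).

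The other 4 Wnt ligand genes of the worm were all enriched in *glp-4* worms. Over the 5 ligand genes 1 was thus gonad-enriched and 4 were enriched in *glp-4* worms, beside 30.9% and 53.1% of all genes tested. The median log2 fold change of the 5 was -3.87, beside -1.50 over all genes. *cwn-2* had 0.190 and 0.893 CPM in gonads, against 5.93 and 10.2 CPM in *glp-4* worms. Its log2 fold change was -3.87 ± 0.43 (SE), or -3.13 without gonad replicate 1 and -5.36 without gonad replicate 2. *cwn-1* differed by -2.25 ± 0.34, with 0.712 and 1.07 CPM in gonads, against 4.35 and 4.22 CPM in *glp-4* worms. *egl-20* and *lin-44*, whose products pattern the tail, were close to the detection limit in gonads. *egl-20* had 3 and 0 counts in gonads and 34 and 21 in whole worms, a whole-worm to gonad ratio of 16.8 whose exact 95% counting interval ran over 5.46 to 84.0. Its fitted log2 value was -7.77 when gonad replicate 1 was left out and -2.99 when gonad replicate 2 was. *lin-44* had 0 and 1 counts against 26 and 45, a ratio of 65.1 with an interval of 11.3 to 2605, and its fitted log2 values under the same omissions were -4.85 and -8.08. Both intervals cover counting error only, because the cDNA was amplified and no molecular identifiers are described.

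To compare ligands with each other, CPM was divided by the exon length of each gene in kilobases (CPM per kb). *mom-2* made up 99.8% and 99.6% of the summed level of the 5 ligand genes in gonads, against 22.0% and 19.9% in whole worms. The sum itself was 303 and 327 CPM per kb in gonads and 10.7 and 14 CPM per kb in whole worms. In whole worms *cwn-2* held the largest share, 38.9% and 50.8%, and *cwn-1* held 23.6% and 17.4%. Gonads thus carried almost a single Wnt ligand transcript, and whole worms a mixture of all 5 at low levels.

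**Figure D2:**
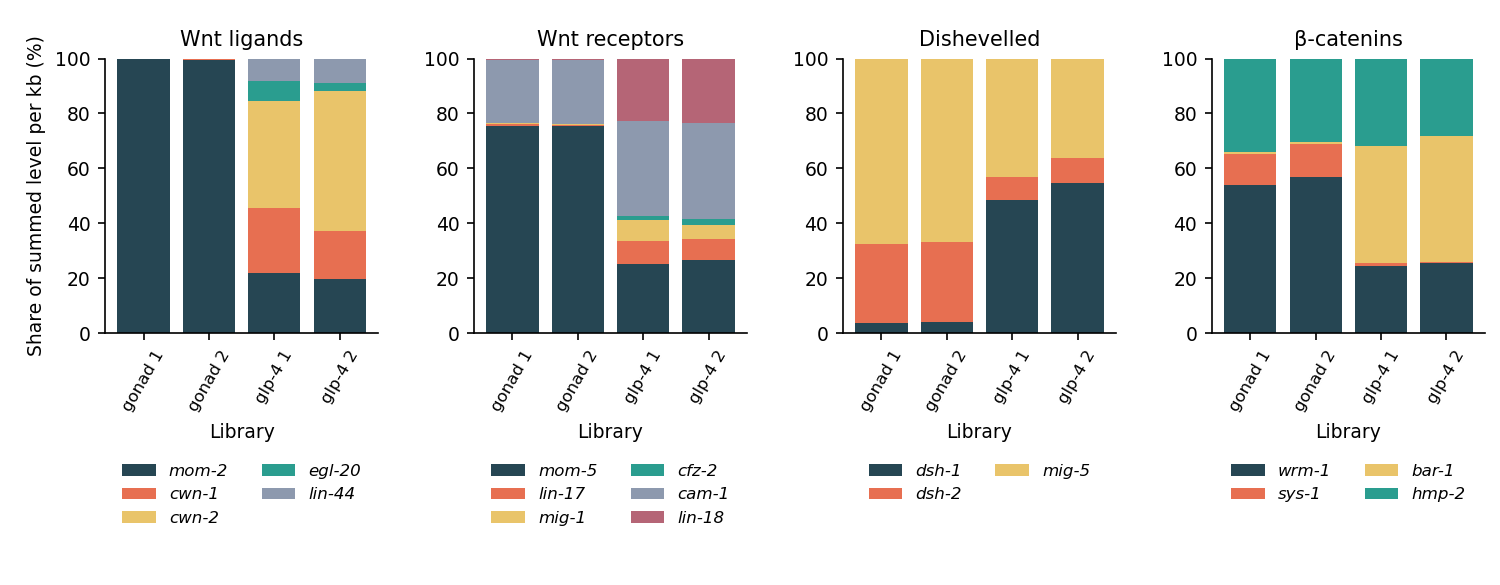
Share of each gene in the summed level of its family in every library, in percent, for the 5 Wnt ligand, 6 Wnt receptor, 3 Dishevelled and 4 β-catenin genes; levels are TMM-adjusted CPM per kb of exon, bars stack to 100, gonad libraries stand left of glp-4 whole-worm libraries. mom-2 fills 99.8% and 99.6% of the gonad ligand bars, mom-5 about 75% of the gonad receptor bars, and bar-1 takes under 1% of the β-catenin bars in gonads against 42.6% and 45.8% in whole worms.

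*mom-5* (WBGene00003397, chromosome I, 9965574 to 9970037, plus strand) encodes the Frizzled receptor that acts in the early embryo. It had 343 and 354 CPM in gonads against 67.2 and 71.1 CPM in *glp-4* worms, with no overlap between the groups. Its log2 fold change was 2.33 ± 0.14 (SE), or 5.04-fold, with an adjusted p of 1.21e-12 (edgeR, Benjamini-Hochberg adjusted). Of its exon length 2.66% overlaps *tsp-7* on the opposite strand, and the labels do not say that strand was kept. By level per kb of exon among 12744 tested genes with an annotated length, it lay at the 92.7 percentile in gonads and at the 77.0 percentile in *glp-4* worms. *mom-2* lay at the 97.6 percentile in gonads and at the 29.2 percentile in *glp-4* worms.

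The other 3 Frizzled genes had the opposite difference. *lin-17* had 3.04 and 1.74 CPM in gonads, against 19.3 and 18.1 CPM in *glp-4* worms (log2 -2.97 ± 0.24, SE). *mig-1* differed by -3.14 ± 0.28, and *cfz-2* by -4.17 ± 0.47 (-5.45 without gonad replicate 1 and -3.45 without gonad replicate 2). These receptors are known from cell polarity and migration in larvae. Among the other Wnt receptors, the Ryk gene *lin-18* had 1.61 and 1.34 CPM in gonads, against 45.7 and 47.1 CPM in *glp-4* worms. The Ror kinase gene *cam-1* had 139 and 146 CPM in gonads, against 122 and 123 CPM in *glp-4* worms, a log2 fold change of 0.22 ± 0.12 with an adjusted p of 0.103 (edgeR, Benjamini-Hochberg adjusted), or 0.0360 with RLE size factors. Over the 6 receptor genes 1 was gonad-enriched and 4 were enriched in *glp-4* worms, beside 30.9% and 53.1% of all genes tested. Their median log2 fold change was -3.06, beside -1.50 over all genes.

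Per kb of exon, *mom-5* made up 75.4% and 75.5% of the summed level of the 6 receptor genes in gonads, against 25.4% and 26.8% in whole worms. *cam-1* supplied nearly all the rest in gonads, with 22.9% and 23.3%. In whole worms *cam-1* held 34.4% and 34.8% and *lin-18* 22.7% and 23.5%. Among the 4 Frizzled genes alone, *mom-5* held 98.3% and 98.9% in gonads and 59.3% and 64.4% in whole worms. It was thus the leading Frizzled transcript in both groups, while *mom-2* was the leading ligand transcript in gonads and not in whole worms.

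Inside the cell, Dishevelled proteins pass the signal from Frizzled to the complex of Axin, APC and kinases that controls β-catenin. *apr-1* (WBGene00000156, chromosome I, 8050037 to 8055475, plus strand) encodes the APC-related protein, which in the early embryo acts in endoderm induction together with WRM-1. It had 399 and 405 CPM in gonads against 55.2 and 56.5 CPM in *glp-4* worms. Replicates differed by little and the groups lay far apart. The log2 fold change was 2.85 ± 0.14 (SE), or 7.20-fold, with an adjusted p of 6.88e-14 (edgeR, Benjamini-Hochberg adjusted).

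Of the 6 genes listed for the complex, 2 were gonad-enriched and 2 were enriched in *glp-4* worms, beside 30.9% and 53.1% of all genes tested. The median log2 fold change was -0.29, beside -1.50 over all genes. The Axin gene *pry-1* had 7.50 and 7.06 CPM in gonads, against 57.8 and 58.9 CPM in *glp-4* worms (log2 -3.0 ± 0.16, SE). The Axin-like gene *axl-1* had 1 and 2 counts in gonads and 22 and 29 in whole worms, with a whole-worm to gonad ratio of 15.6 (exact 95% counting interval 5.04 to 78.0). The glycogen synthase kinase gene *gsk-3* was lower in gonads by under 2-fold (-0.84 ± 0.15), and passed the fold minimum without gonad replicate 1 (-1.04) and with limma on the deposited log2 table (-1.0). The casein kinase gene *kin-19* had 241 and 261 CPM in gonads, against 191 and 231 CPM in *glp-4* worms and did not pass the test, with an adjusted p of 0.0884 (edgeR, Benjamini-Hochberg adjusted). It passed with RLE size factors (adjusted p = 0.0299), without *glp-4* replicate 2 (0.0379) and without gonad replicate 1 (0.0418). The F-box gene *lin-23*, whose product marks substrates for degradation, differed by 2.06 ± 0.13. The APC-related gene was thus gonad-enriched while both Axin genes were enriched in *glp-4* worms. Opposite-strand genes overlap 9.12% of the exon length of *pry-1* and 5.45% of that of *axl-1*.

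The 3 Dishevelled genes also differed in direction. *dsh-2* had 87.3 and 81.5 CPM in gonads, against 6.95 and 7.20 CPM in *glp-4* worms (log2 3.57 ± 0.16, SE). *mig-5* followed at 2.60 ± 0.14, with 181 and 165 CPM in gonads, against 31.6 and 25.5 CPM in *glp-4* worms. *dsh-1* was lower in gonads (log2 -1.88 ± 0.14), with 20.1 and 20.5 CPM in gonads, against 71.9 and 78.0 CPM in *glp-4* worms. Per kb of exon, *mig-5* and *dsh-2* made up 67.1% ± 0.605 and 28.9% ± 0.319 of the family in gonads, against 39.6% ± 4.87 and 8.66% ± 0.458 in whole worms (SD, n = 2). *dsh-1* made up 3.93% ± 0.286 in gonads and 51.8% ± 4.41 in whole worms.

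The 4 β-catenin genes were spread over more than 10 units of the log2 scale, from *sys-1* at 5.63 ± 0.21 to *bar-1* at -4.60 ± 0.19 (SE). *wrm-1* (WBGene00006943, chromosome III, 5722850 to 5727115, plus strand) encodes the β-catenin that binds LIT-1 and lowers nuclear POP-1. It had 262 and 276 CPM in gonads against 42.8 and 48.6 CPM in *glp-4* worms, and the groups did not overlap. Its log2 fold change was 2.56 ± 0.14, or 5.88-fold, with an adjusted p of 3.45e-13 (edgeR, Benjamini-Hochberg adjusted).

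*sys-1* (WBGene00006379, chromosome I, 9980063 to 9984794, minus strand) encodes the β-catenin that binds POP-1 and turns it into an activator. It had 57.5 and 60.6 CPM in gonads against 1.39 and 1.01 CPM in *glp-4* worms, where it had 30 and 26 counts. It was 49.6-fold higher in gonads, with an adjusted p of 1.13e-15 (edgeR, Benjamini-Hochberg adjusted). The mean whole-worm level of *sys-1* was 2.03% of the gonad level, beside 1.90% for the summed germ cell markers. Single germ cell markers ranged from 20-fold (*glh-1*) to 125-fold (*gld-1*) higher in gonads. The part of residual germ cells in the whole-worm level of *sys-1* was not tested. On the chromosome, *sys-1* lies 10025 bases from *mom-5* on the other strand, with 2 protein-coding genes between them.

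*bar-1* (WBGene00000238, chromosome X, 7166005 to 7170625, minus strand) encodes the β-catenin of canonical Wnt signalling, known from vulval precursor cells and migrating neuroblasts. It was the only gene of the 10 that was lower in gonads, with 3.37 and 2.81 CPM in gonads against 68.5 and 81.1 CPM in *glp-4* worms. It was 24.2-fold lower in gonads, with an adjusted p of 3.83e-15 (edgeR, Benjamini-Hochberg adjusted). The mean gonad level was 4.14% of the whole-worm level. For comparison, the summed level of marker lists in gonads was 1.90% of that in whole worms for body wall muscle, 1.81% for hypodermis, 0.416% for intestine, 0.129% for pharynx, 8.65% for vulva and uterus, 21.2% for neurons and 63.4% for the somatic gonad. The somatic gonad list summed to 86.8 and 73.4 CPM in gonads, against 117 and 136 CPM in *glp-4* worms, and the vulva and uterus list to 3.89 and 4.42 CPM in gonads, against 42.6 and 53.5 CPM in *glp-4* worms. One gene carried most of the gonad sum in the somatic gonad list, *inx-8* with 68.6 and 58.0 CPM, and in the neuron list, *snb-1* with 44.7 and 41.4 CPM. The same held for *lin-11* in the vulva and uterus list, with 3.65 and 4.06 CPM, and for *elt-1* in the hypodermis list, which summed to 14.2 and 14.5 CPM. In the intestine list *vit-6* held 104 and 79.6 of 186 and 141 CPM. The gonad side of the percentages for the somatic gonad, neuron, vulva and uterus and hypodermis lists thus rests largely on 1 gene each. In the intestine list *vit-2* followed *vit-6*, with 72.0 and 51.9 CPM. In the body wall muscle list *mup-2* averaged 92.7, *unc-54* 59.2, *unc-15* 44.9 and *myo-3* 19.1 CPM in gonads. In the pharynx list *myo-1* averaged 0.415 and *myo-2* 0.461 CPM in gonads. Of the 5 hypodermis markers 2 were at 0 in both gonad libraries, as was 1 of the 3 pharynx markers. The other hypodermis markers had counts there, and *elt-1* had 9.63 and 10.9 CPM in gonads, against 7.46 and 8.79 CPM in *glp-4* worms. The part of somatic cells in the gonad level of *bar-1* was not tested.

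*hmp-2* (WBGene00001979, chromosome I, 14738882 to 14742671, plus strand) encodes the β-catenin of adherens junctions, which joins the cadherin HMR-1 to the α-catenin HMP-1. It had 133 and 120 CPM in gonads against 44.9 and 43.5 CPM in *glp-4* worms. It was 2.87-fold higher in gonads (log2 1.52 ± 0.13), with an adjusted p of 8.55e-10 (edgeR, Benjamini-Hochberg adjusted), the smallest difference among the gonad-enriched β-catenin genes. Its junction partners differed in the same direction. The cadherin gene *hmr-1* had 673 and 785 CPM in gonads, against 85.4 and 101 CPM in *glp-4* worms (2.97 ± 0.16), and the α-catenin gene *hmp-1* differed by 1.97 ± 0.14. The p120-catenin gene *jac-1*, whose product also binds cadherin, was lower in gonads (log2 -1.39 ± 0.15), with 22.8 and 21.3 CPM in gonads, against 52.5 and 62.7 CPM in *glp-4* worms.

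Per kb of exon, the make-up of the β-catenin family was unlike in the 2 groups. *wrm-1* held 54% and 56.9% of the summed level in gonads, against 24.7% and 25.5% in whole worms. *sys-1* held 11.4% and 12.1% in gonads and 0.776% and 0.511% in whole worms. *bar-1* held 0.747% and 0.624% in gonads and 42.6% and 45.8% in whole worms. For each of these 3 genes the libraries of the groups did not overlap. This is a description, as 36.4% of all genes tested were higher and 56.6% lower in gonads at adjusted p alone. *hmp-2* held 33.8% and 30.4% in gonads and 31.9% and 28.1% in whole worms, so its share overlapped between the groups although its level did not. The family summed to 174 CPM per kb in both gonad libraries and to 62.1 and 68.3 CPM per kb in whole worms.

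The kinase and the transcription factor on which the signal acts had the smallest differences of the 10, counted from 0. Of all genes tested, 38.1% had a higher log2 fold change than *lit-1* and 35.1% a higher one than *pop-1*, and the median was -1.50. *lit-1* (WBGene00003048, chromosome III, 13701991 to 13724404, plus strand) encodes the Nemo-like kinase that phosphorylates POP-1. It had 33.0 and 37.1 CPM in gonads against 27.0 and 32.2 CPM in *glp-4* worms. The lowest gonad library lay just above the highest whole-worm library, and the log2 fold change of 0.24 ± 0.15 (SE) did not pass the test, with an adjusted p of 0.139 (edgeR, Benjamini-Hochberg adjusted). With RLE size factors it was 0.32 and passed, with an adjusted p of 0.0487, the lowest of 10 alternatives that reached up to 0.633. Transcripts of 2 proteins known to activate LIT-1, MOM-4 and TAP-1, differed in opposite directions. *mom-4*, which encodes a TAK1-like kinase, had 39.7 and 42.2 CPM in gonads, against 14.9 and 13.9 CPM in *glp-4* worms (1.51 ± 0.16). *tap-1*, which encodes a TAB1-like binding protein, had 8.83 and 7.32 CPM in gonads, against 84.3 and 88.4 CPM in *glp-4* worms (-3.42 ± 0.16).

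*pop-1* (WBGene00004077, chromosome I, 2822243 to 2830311, minus strand) encodes the TCF transcription factor of the worm. It had 17.5 and 14.5 CPM in gonads against 10.3 and 10.9 CPM in *glp-4* worms, without overlap. Its log2 fold change was 0.59 ± 0.19 (SE), or 1.5-fold, with an adjusted p of 0.00551 (edgeR, Benjamini-Hochberg adjusted). The call was lost with library totals as the scaling (0.44, adjusted p = 0.0525) and with limma on the deposited log2 table (0.42, adjusted p = 0.0546). Of its exon length 3.91% is shared with another gene on the same strand. The Groucho corepressor gene *unc-37* differed more, by 1.72 ± 0.13, and the coactivator gene *cbp-1*, which encodes a CBP-like acetyltransferase, by 0.83 ± 0.14.

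Ordered by level per kb of exon, the transcripts of the 10 genes covered a wide range in gonads. *mom-2* stood first with 314 ± 16.6 CPM per kb (SD, n = 2), followed by *mom-5* (140 ± 2.95), *apr-1* (103 ± 1.14), *wrm-1* (96.5 ± 3.53), *hmp-2* (55.9 ± 4.2) and *sys-1* (20.5 ± 0.756). *lit-1* (10.2 ± 0.834), *pop-1* (6.25 ± 0.840), *mom-1* (3.65 ± 0.432) and *bar-1* (1.19 ± 0.152) came last. No neighbours in this order had overlapping libraries. The receptor, APC and WRM-1 transcripts were thus above those of the kinase and the TCF factor they act with.

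In *glp-4* worms the order began with *bar-1* (28.8 ± 3.44 CPM per kb) and *mom-5* (27.8 ± 1.12), which did not differ beyond their spread. *hmp-2* (19.5 ± 0.432), *wrm-1* (16.4 ± 1.48), *apr-1* (14.3 ± 0.235), *lit-1* (8.66 ± 1.08), *pop-1* (4.15 ± 0.161) and *mom-2* (2.57 ± 0.314) followed. *sys-1* (0.415 ± 0.0939) and *mom-1* (0.366 ± 0.154) were last and overlapped. *mom-2* thus stood at the top of the order in gonads and near its end in *glp-4* worms, and *bar-1* stood last in gonads and first in *glp-4* worms.

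**Figure D3:**
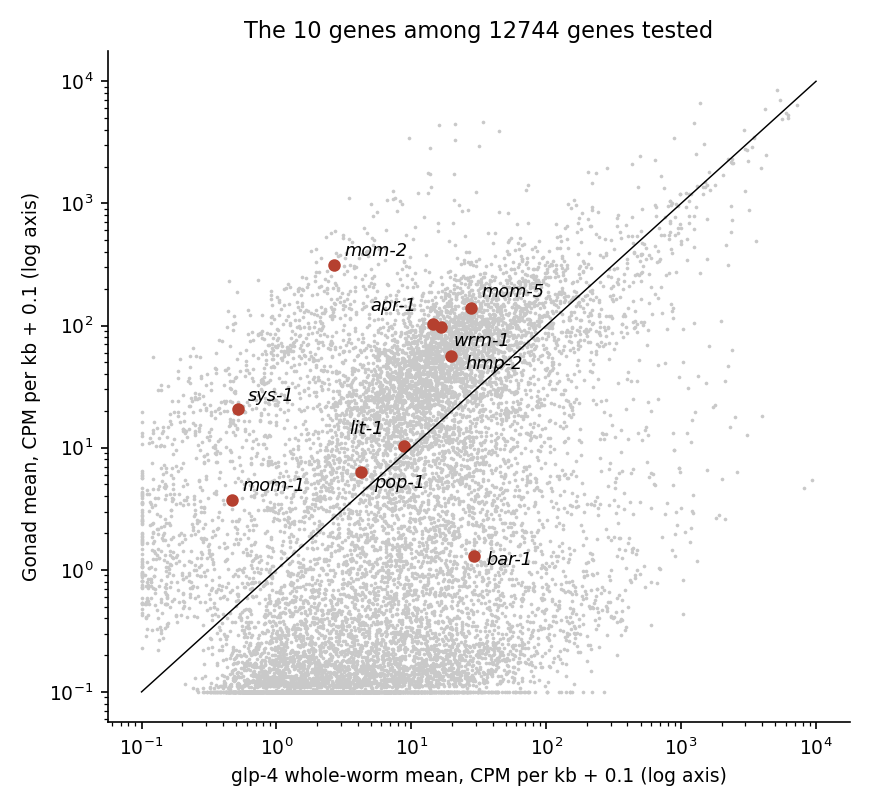
Mean level in gonads (vertical) against mean level in glp-4 whole worms (horizontal), in CPM per kb of exon plus 0.1 on log axes, for 12744 tested genes with an annotated length (grey) and the 10 genes (red, named); the black line marks equal levels. mom-2 and sys-1 lie far above the line, bar-1 far below it, lit-1 and pop-1 close to it, and mom-1, mom-5, apr-1, wrm-1 and hmp-2 between, well above it.

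The transcripts with the most similar values over the 4 libraries were found by Euclidean distance of log2(CPM + 1), as a description of levels. Nearest to *mom-2* was *cpb-3*, which encodes an RNA-binding protein of the CPEB family, at a distance of 0.259, with 418 and 445 CPM in gonads, against 3.98 and 4.14 CPM in *glp-4* worms. Nearest to *sys-1* was the germ granule helicase gene *glh-3*, at 0.197, with 60.8 and 56.2 CPM in gonads, against 1.30 and 1.20 CPM in *glp-4* worms. Nearest to *wrm-1* was *smrd-1* (0.176), nearest to *hmp-2* was *ubxn-6* (0.173), and nearest to *bar-1* was the nuclear hormone receptor gene *nhr-3* (0.139), with 3.32 and 3.13 CPM in gonads, against 66.8 and 77.2 CPM in *glp-4* worms. The second nearest were *F56C9.6*, *hpr-17*, *ulp-2*, *nath-10* and *tag-343* for *mom-2*, *sys-1*, *wrm-1*, *hmp-2* and *bar-1* in that order.

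Across the wider pathway, 52 genes were listed by role, the 10 genes included. Of these, 2 had no row under the names used (*fmi-1* and *imb-4*) and 4 had too few counts to be tested. Of the 46 tested, 21 were gonad-enriched and 16 were enriched in *glp-4* worms, with a median log2 fold change of 0.71. Without the 10 genes, 14 of 36 were gonad-enriched and 15 were enriched in *glp-4* worms, with a median of 0.21, beside 30.9%, 53.1% and -1.50 over all genes tested. Families with several members therefore held both directions, and this was so for the ligand, receptor, Dishevelled and β-catenin genes alike.

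**Figure D4:**
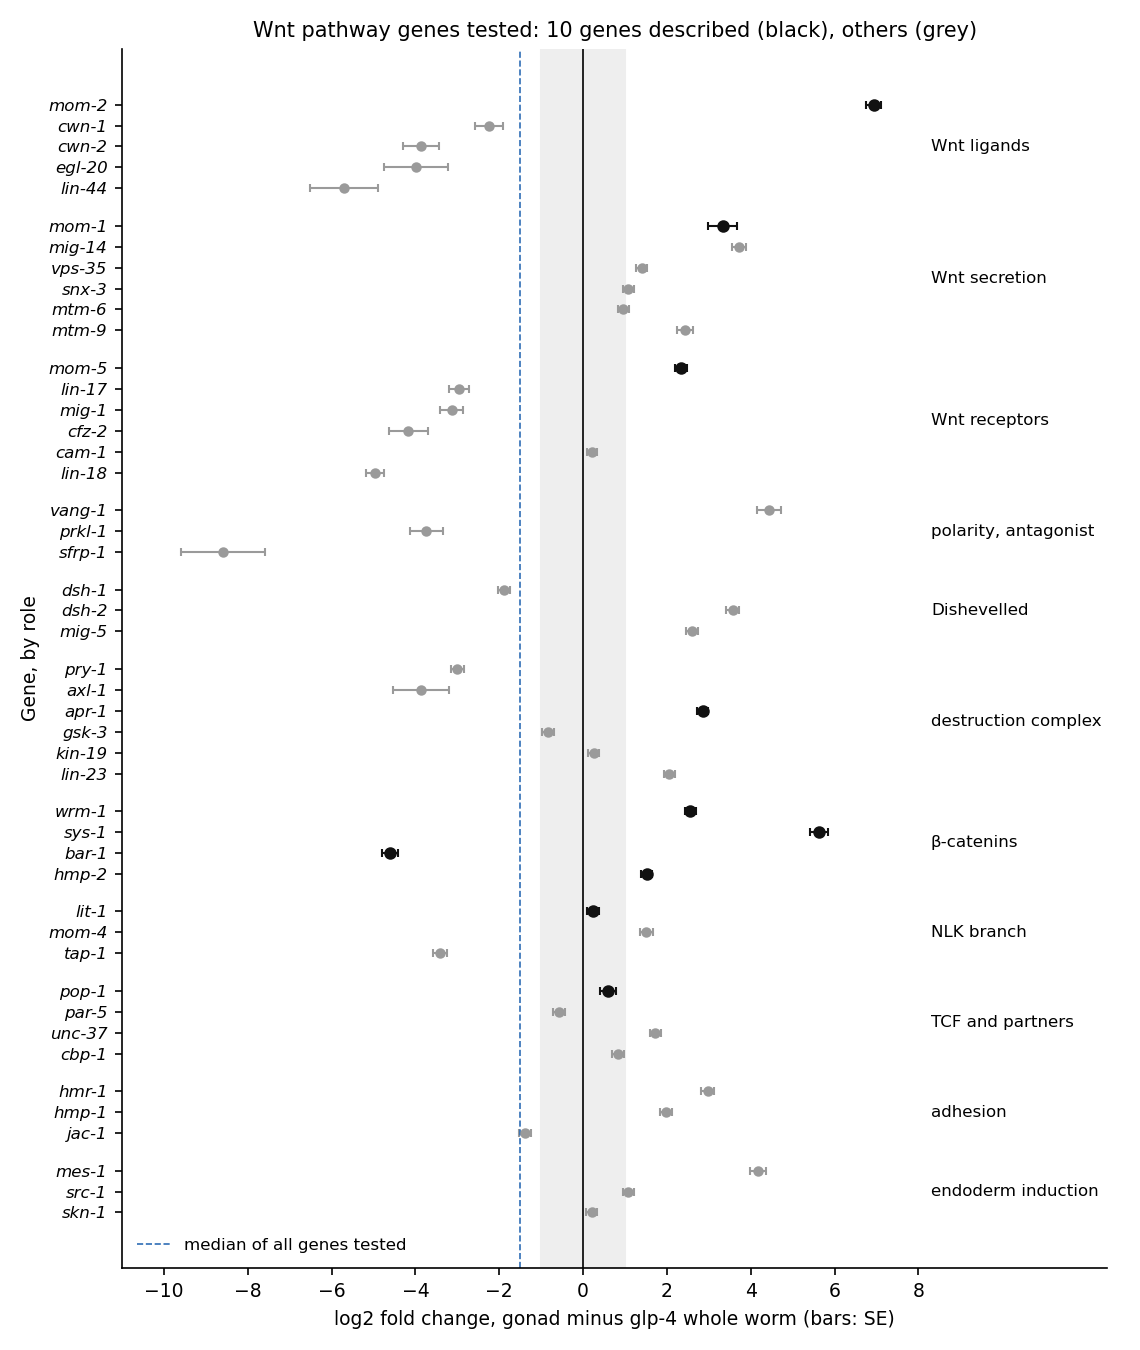
Log2 fold change of gonad minus glp-4 whole worm for the 46 tested Wnt pathway genes, grouped by role, with bars for the SE; black points are the 10 genes described, grey points the others, the grey band marks differences under 2-fold and the blue dashed line the median of all genes tested, -1.50. Values of lin-44, egl-20, axl-1 and sfrp-1 rest on 0 to 3 counts in gonads and depend on the fit's prior count; mom-2 lies at 6.93 and the other 4 ligands lie between -2.25 and -5.71.

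The maternal Wnt signal acts beside a second signal between the same embryonic cells. *mes-1*, which encodes a transmembrane protein resembling a receptor tyrosine kinase, had 63.8 and 74.1 CPM in gonads, against 3.20 and 4.37 CPM in *glp-4* worms (log2 4.17 ± 0.19, SE). The kinase gene *src-1* differed by 1.08 ± 0.14, or 0.93 with library totals, 0.93 on the deposited log2 table and 0.95 without *glp-4* replicate 1, all under the fold minimum. *skn-1*, which encodes a maternal transcription factor that specifies the signalled cell, had 191 and 219 CPM in gonads, against 156 and 201 CPM in *glp-4* worms and did not pass the test. Its adjusted p of 0.187 (edgeR, Benjamini-Hochberg adjusted) became 0.0340 without *glp-4* replicate 2 and 0.0477 without gonad replicate 1. The zygotic endoderm genes that the signal controls had few counts and were not tested. *end-1* had 8 and 2 counts and *end-3* 9 and 8 counts in gonads, and neither had a count in whole worms, where 3 counts in a library correspond to 0.139 and 0.116 CPM. The whole-worm floor was set at 3 counts over the group, and the gonad counts were taken as exact. On that basis *end-1* was at least 3.64-fold and *end-3* at least 6.18-fold higher in gonads. Counting error in the few gonad counts is not covered.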

How the data were processed

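The deposited raw table holds whole-number counts per gene, and the deposited normalized table is on a log2 scale that was reproduced within 5e-05 by scaling each count to the average library total, adding 8 and taking log2. Per the labels' protocols, total RNA was depleted of ribosomal RNA and libraries were made by cDNA amplification. Which aligner, counter, genome build and annotation were used is not given in the sources used here. Of 20182 rows, 1 that repeated another gene's counts was left out. Names, positions and exon lengths came from Ensembl release 115 of WBcel235, which may not be the authors' annotation, and 19513 rows matched. Counts were tested with edgeR 4.0.16 in R 4.3.3 (robust quasi-likelihood, TMM, filterByExpr with a minimum count of 10 and a minimum total of 15, group as the only term), with Benjamini-Hochberg adjustment over 13101 genes. The fit was also run on simulated counts in which few genes changed, evenly in both directions. Most genes differed in the data, so that run does not speak for the scaling used here. A count of 0 allows up to 3 counts, 0.116 to 0.142 CPM per library. Replicates differed by more than sampling noise (chi-square per degree of freedom 13.9 in gonads and 14 in *glp-4* worms) and were counted separately. Alternatives were RLE scaling, library totals, no filter, DESeq2 1.42.0, limma 3.58.1 on the log2 table, each library left out in turn, a replicate block and another gene length. The 10 genes, the pathway and marker lists and the rule for named genes (all listed genes, and the 2 nearest to 5 genes) were chosen with earlier results of these data known.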

Additional observations from a re-analysis of the deposited data

How the results depend on the processing

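The counts of gonad-enriched and *glp-4*-enriched genes among the 10 were 7 and 1 under each of the 10 alternatives to the fit, each library left out in turn included, and no log2 fold change of the 10 genes changed sign. The ranges were 6.67 to 7.04 for *mom-2*, 5.13 to 5.84 for *sys-1*, -4.75 to -4.45 for *bar-1*, 2.40 to 2.64 for *wrm-1*, 2.69 to 2.93 for *apr-1*, 2.17 to 2.42 for *mom-5* and 1.36 to 1.61 for *hmp-2*. The median over all genes tested, -1.50, was -1.66 with library totals as the scaling, -1.34 with limma on the deposited log2 table, where scaling, offset and test all differ, and -1.33 without *glp-4* replicate 2. *lit-1* passed the test with RLE size factors, and *pop-1* did not pass with library totals or on the deposited log2 table. On that table, whose offset shrinks the folds of rare transcripts, values moved by over 1.5 times for *mom-1* (2.63), *vang-1* (3.76), *cfz-2* (-3.10), *prkl-1* (-3.13), *axl-1* (-1.83), *egl-20* (-1.92), *lin-44* (-2.34) and *sfrp-1* (-2.88). Samples of equal number share only a number, with a correlation of their deviations of 0.0893. With a replicate block, 7 and 1 of the 10 genes and 4019 and 6904 of all genes were enriched, and *cam-1*, *kin-19* and *skn-1* passed at adjusted p of 0.0207, 0.00706 and 0.0246 (edgeR's quasi-likelihood test). Taking the longest transcript as gene length moved the gonad share of *mom-5* among receptors to 75.3% and the whole-worm share of *cam-1* to 34.9%. With 2 libraries a group, ratios of transcripts with 0 to 3 counts in gonads were limited by depth.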

Other observations

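Genes of planar polarity and a secreted antagonist, which act beside Wnt ligands in neurons and epithelia, were also divided. *vang-1*, which encodes the Van Gogh protein, had 16.7 and 13.8 CPM in gonads, against 0.695 and 0.697 CPM in *glp-4* worms, a log2 fold change of 4.44 ± 0.28 (SE) that was 3.76 on the deposited log2 table, and 5.67% of its exons overlap an opposite-strand gene. *prkl-1*, which encodes a Prickle protein, had 0.664 and 0.179 CPM in gonads, against 5.56 and 5.69 CPM in *glp-4* worms, a difference of -3.74 ± 0.40 (-4.89 when gonad replicate 1 was left out, -3.06 when gonad replicate 2 was). The secreted Frizzled-related gene *sfrp-1* had no count in gonads and 51 and 49 counts in whole worms. With 3 counts over the group as the gonad floor and whole-worm counts taken as exact, *sfrp-1* was at least 30.5-fold lower in gonads. *par-5*, which encodes a phosphoprotein-binding adaptor that takes part in POP-1 export, had 447 and 398 CPM in gonads, against 618 and 640 CPM in *glp-4* worms (-0.57 ± 0.14). The endoderm factor genes *med-1* and *med-2*, which are near-identical copies, were at 0 in all 4 libraries.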
